A study of Xenopus laevis with 2 samples.

Results

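Chromosomes 1L and 1S are the homeologous pair 1 of Xenopus laevis, the longest of the 9 pairs of this frog's assembled chromosomes. The pair was chosen by its covered share, the percentage of its length inside peaks of accessible DNA, which was the lowest of the 9 pairs in each replicate. Its members were all peaks on 1L or 1S, 49246 of 325974 peaks (15.1%) in replicate 1 and 41415 of 277551 peaks (14.9%) in replicate 2. Whole wild-type (WT) embryos were given 2.3 ng of a Dam-only construct, a bacterial methylase without a fusion partner labelled as Dam mRNA, as 1-cell zygotes. At 4.5 h of development, when they had 256 cells, 500 of them went into each of 2 replicates, which make up the 1 group of the series. Non-injected embryos were not analysed here, a whole embryo mixes all cells of the cleavage stage, and the labels do not say whether the replicates came from separate clutches.

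The assay was CATaDa, in which untethered Dam methylates adenine in GATC motifs wherever DNA is open, and the methylated motifs are later cut and sequenced. The frog is an allotetraploid, so most ancestral chromosomes exist as a longer L copy and a shorter S copy, and homeologous genes carry the suffixes .L and .S. At the cleavage stage of these embryos nuclei divide rapidly and most zygotic genes are still silent. A peak therefore describes open DNA, with the spacing of GATC motifs as the limit of its resolution, and not transcription.

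Peaks covered 4.67% of pair 1 in replicate 1 and 4.34% in replicate 2, a mean of 4.51% ± 0.230 (SD, n = 2), against 5.02% and 4.72% of the other 16 chromosomes. Pair 2, next above pair 1, had 4.79% and 4.49%. Since the covered share chose the pair, these values are a description. Chromosome 1L held 25671 and 21593 peaks on 234 Mb, with 4.52% and 4.20% covered, and each value was below those of the other 16 chromosomes, of which 2L was lowest at 4.72% and 4.41%. Chromosome 1S held 23575 and 19822 peaks on 202 Mb, with 4.84% and 4.51% covered, within the range of the others, whose highest was 8S at 5.57% and 5.32%. Over all 18 chromosomes, length and covered share had a Spearman's rho of -0.853 in replicate 1 and -0.849 in replicate 2, as a description over chromosomes that share the same libraries.

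**Figure D1:**
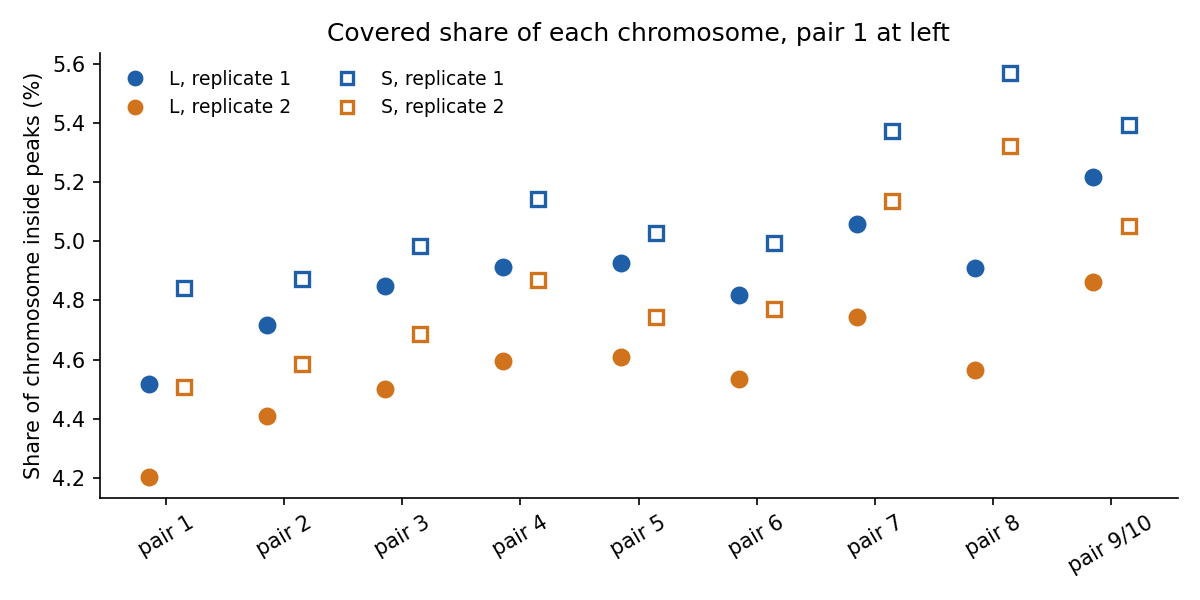
Share of each chromosome inside peaks (%), with 1 point for each chromosome and replicate, filled circles for L and open squares for S, and pair 1 at the left. The 1L points, at 4.52% and 4.20%, are the lowest of their replicate, and the 1S points lie within the range of the other chromosomes on an axis that does not start at 0.

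The lower covered share of the pair came with fewer peaks, while median widths and fold enrichments were close to those elsewhere. Pair 1 held 113 and 95.0 peaks per Mb, against 120 and 102 peaks per Mb on the other 16 chromosomes. Its median peak width was 335 bp and 373 bp, against 336 bp and 374 bp elsewhere. The median fold enrichment of its peaks, the authors' ratio of pileup to local background, was 4.33 and 4.50, against 4.34 and 4.50 elsewhere. Widths and fold enrichments thus differed little from the remaining genome, while peaks per Mb were fewer in both replicates.

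Replicates shared most peaks of pair 1. Overlap of 1 bp or more with the other list made a peak shared, and this held for 65.4% of replicate 1 peaks and 77.4% of replicate 2 peaks on the pair. Over all 18 chromosomes the shares were 66.6% and 77.8%, so the overlap on pair 1 was near that of the whole genome. On 1L they were 65.2% and 77.1%, and on 1S 65.7% and 77.7%. Shared peaks on the pair had median fold enrichments of 4.90 and 4.88, against 3.66 and 3.73 for peaks found in 1 replicate only. Of all shared peaks, 3808 had the same start and end in both lists.

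Chromosome 1L was the more sparsely marked copy in each replicate. It held 110 and 92.4 peaks per Mb, against 116 and 97.9 peaks per Mb on 1S. The difference, L minus S, was -6.64 and -5.54 peaks per Mb, with a mean of -6.09 ± 0.774 (SD, n = 2), and the replicates had the same direction. In covered share the difference was -0.326 and -0.308 percentage points, a mean of -0.317 ± 0.0128 (SD, n = 2). This direction was not particular to pair 1. In every other pair L was below S in both measures and both replicates. In peaks per Mb, L minus S ranged from -2.33 and -2.17 in pair 5 to -14.1 and -14.5 in pair 8. The median distance between neighbouring peaks was 6066 bp and 6952 bp on 1L, against 5812 bp and 6746 bp on 1S. With 2 replicates of 1 group an exact sign-flip permutation test cannot give a p-value under 0.5, so none was run.

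Long stretches without a peak in either replicate were also more frequent on 1L. Those of 50 kb or more numbered 61 on 1L, or 26.1 per 100 Mb and 3.81 Mb in all, against 34 on 1S, or 16.8 per 100 Mb and 2.01 Mb in all. Per 100 Mb, the L copy also exceeded the S copy in every other pair except pair 6, with 11.0 on 6L and 13.8 on 6S. The value nearest to that of 1L was 24.1 on 2L, against 14.8 on 2S. The longest on 1L, chr1L:43247188-43365024 (assembly v10.1), spanned 118 kb inside sgcz.L, a gene for a sarcoglycan of the dystrophin complex. The next on 1L, of 87.5 kb, held all of diras2.L and part of syk.L, which encodes a tyrosine kinase of immune receptor signalling. The longest on 1S, chr1S:89581557-89670964, spanned 89.4 kb and lay 17580 bp from the nearest annotated gene, atp5me.S.

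Density varied more along each chromosome than between the copies. In fixed bins of 1 Mb, 1L ranged over 70, 108 and 168 peaks (lowest, median and highest of 233 bins) in replicate 1 and over 54, 89 and 160 in replicate 2. On 1S the values over 202 bins were 68, 115 and 183 in replicate 1 and 58, 94.5 and 158 in replicate 2. The replicates ordered the bins alike, with a Spearman's rho of 0.906 over 1L and 0.880 over 1S, and replicate 1 had more peaks in 429 of 435 bins. Of the 20 densest bins of a replicate, 16 were shared with the other replicate on 1L and 16 on 1S, and of the 20 sparsest 13 on 1L and 11 on 1S. Pooled over the pair, rho was 0.900 over 435 bins, against 0.934 over 2297 pooled bins of the other 16 chromosomes. Taken singly, those chromosomes ranged from 0.901 on 6S to 0.953 on 9_10S, so 1S was below each of them. These correlations are over bins of the same libraries and carry no p-value.

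Along both copies density was high at the ends and low over long interior parts, with a dense island near the middle. On 1L the first 30 Mb held 121 to 122 peaks per Mb in replicate 1 when taken in 10 Mb steps, and the 60 Mb that follow held 88.1 to 99.0 peaks per Mb in replicate 1 and 74.7 to 84.0 in replicate 2. Density rose again over the last 33 Mb, where 230 to 233 Mb from the start held 146 and 121 peaks per Mb. On 1S the first 10 Mb held 131 and 112 peaks per Mb and the steps beyond 170 Mb held 125 to 134 in replicate 1, against 98.6 and 83.0 at 30 to 40 Mb.

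**Figure D2:**
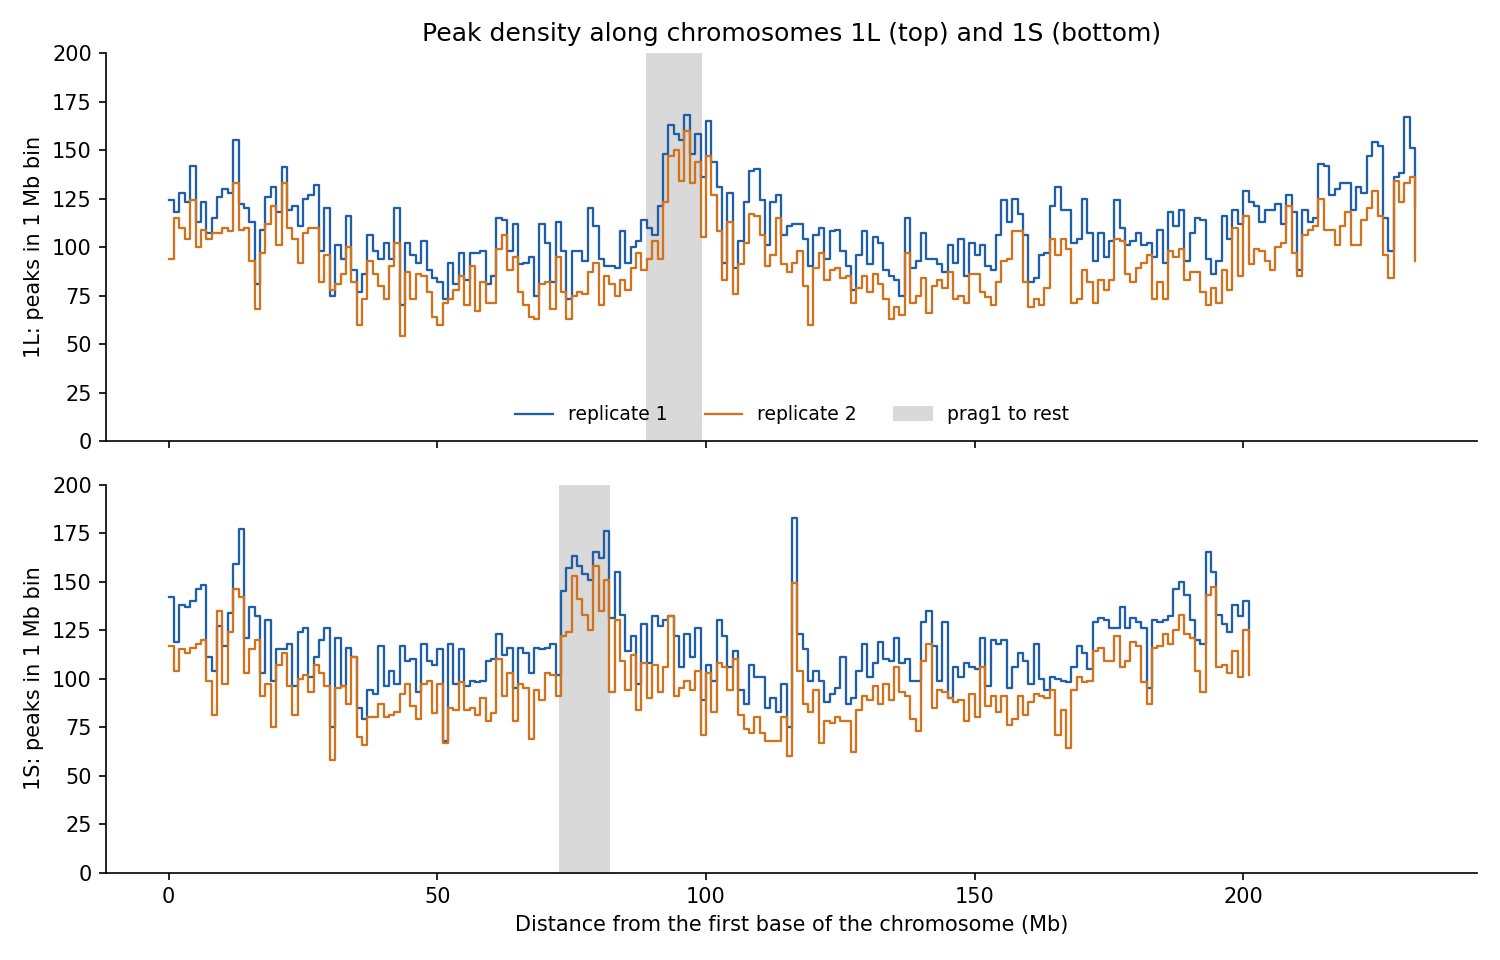
Number of peaks in each 1 Mb bin by distance from the first base of the chromosome (Mb), 1L above and 1S below, for both replicates, with the stretch between prag1 and rest shaded. Bins in and near the shaded stretch reach 168 and 160 peaks on 1L and 176 and 158 on 1S, and the isolated bin of 1S with 183 and 149 peaks, its tallest in replicate 1, holds ric1.S and jak2.S.

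The dense island lay in partly homeologous DNA on the copies, with uhrf1 and rest inside it on both. The 8 neighbouring bins of highest density were those at 93 to 101 Mb on 1L, with 156 and 140 peaks per Mb against 108 and 90.7 on the rest of 1L. On 1S they were those at 74 to 82 Mb, with 161 and 140 peaks per Mb against 115 and 96.2 on the rest of 1S. Covered shares were 6.81% and 6.63% inside against 4.44% and 4.11% outside on 1L, and 7.04% and 6.76% inside against 4.75% and 4.42% outside on 1S. Peaks inside were not of higher fold enrichment, with medians of 4.30 and 4.43 inside against 4.31 and 4.50 outside on 1L. The window was placed after its values had been seen, so these contrasts are descriptive.

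The homeologous stretch between prag1 and rest took in nearly all of the island of 1S, but on 1L it began before the island and ended inside it. Between prag1, which encodes a pseudokinase, and rest, which encodes a repressor of neuronal genes, 1L held 144 and 129 peaks per Mb over 10.03 Mb, and 1S held 158 and 138 peaks per Mb over 9.06 Mb. Gene order within it differed between the copies. From prag1 onward, 1L carried hnrnpdl, rasgef1b, mapk10 and uhrf1 at 90.7, 90.8, 91.5 and 97.4 Mb. On 1S mapk10, rasgef1b, hnrnpdl and uhrf1 followed each other at 77.5, 78.4, 78.8 and 79.02 Mb. Sub-intervals between the same genes therefore need not hold matching DNA on the copies, so their densities do not compare homeologous segments. The sub-interval from prag1 to mapk10, 2.47 Mb on 1L and 4.62 Mb on 1S, held 111 and 98.7 peaks per Mb on 1L, against 152 and 131 on 1S. From mapk10, a gene for a stress-activated kinase, to uhrf1, which encodes a factor of maintenance DNA methylation, 1L spanned 5.92 Mb and 1S 1.54 Mb, at 156 and 139 peaks per Mb on 1L against 158 and 137 on 1S. The island was poor in genes, with 45 protein-coding genes in its 8 bins on 1L, where the chromosome's mean would give 90.7, and 33 on 1S, where it would give 79.8.

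Other chromosomes also had a densest window of 8 bins. On 1L it was 1.504 times the median bin in the mean of both replicates and was centred at 41.5% of the length, and on 1S it was 1.43 times the median and centred at 38.5%. On 7 of the other 16 chromosomes the window was centred at 36.1% to 47.5% of the length, at 1.23 to 1.39 times the median bin, and on the remaining 9 it was centred at 6.28% to 23.8%, at 1.203 to 1.57 times the median bin. The window of 3L, at 1.57 times, exceeded those of 1L and 1S. On the 7 chromosomes with an interior window, it also held fewer protein-coding genes than the chromosome's mean would give. Examples are 46 against 111 on 8S and 79 against 99.1 on 2L. Of the remaining windows some held fewer and some more, such as 131 against 93.2 on 4S. What lies in these windows apart from annotated genes was not analysed here.

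Several of the sparsest bins of pair 1, ordered by the mean of both replicates, lay over long genes. On 1L the lowest was at 43 to 44 Mb, with 70 and 54 peaks, and held sgcz.L and tusc3.L. The lowest on 1S was the bin at 30 to 31 Mb, with 75 and 58 peaks, and it held sgcz.S, so the lowest bin of each copy held a copy of the same gene. The bin at 136 to 137 Mb on 1L, with 75 and 65 peaks, and the bin at 115 to 116 Mb on 1S, with 75 and 60 peaks, both held ptprd, a gene for a receptor tyrosine phosphatase of neurons. Protocadherin genes, for adhesion of cells, also lay in such bins, pcdh7.L at 35 to 36 Mb with 77 and 60 peaks and pcdh10.S at 51 to 52 Mb with 68 and 67 peaks. The bin at 68 to 69 Mb on 1L, with 75 and 63 peaks, held 10 protein-coding genes, among them plk4.L, which encodes the kinase of centriole duplication. The bin at 74 to 75 Mb of 1L, with 73 and 63 peaks, held 8, among them sec24d.L and usp53.L, and on 1S the bins at 36 to 37 Mb, with 79 and 66 peaks, and at 113 to 114 Mb, with 83 and 68 peaks, held 5 and 6.

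Of the 5 densest bins of 1L in the mean of both replicates, 4 lay at 93 to 99 Mb, led by the bin at 96 to 97 Mb with 168 and 160 peaks, which held mettl14.L, a gene for a subunit of the RNA methylation complex. The bin at 93 to 94 Mb, with 163 and 147 peaks, held no protein-coding gene. On 1S the bin at 81 to 82 Mb, with 176 and 151 peaks, held rest.S and polr2b.S, a gene for the second largest subunit of RNA polymerase II. The bin at 13 to 14 Mb, with 177 and 142 peaks, lay outside the island and held 14 protein-coding genes, among them rnf4.S, add1.S and rgs12.S. Across the 435 bins of the pair, density and the number of protein-coding genes had a Spearman's rho of 0.242 (mean of both replicates), given as a description over bins.

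In the mean of both replicates the densest bin of pair 1 was on 1S at 116 to 117 Mb, with 183 and 149 peaks, although in replicate 2 the bin at 96 to 97 Mb of 1L had more, 160, and the homeologous stretch of 1L was not dense. From the start of ric1.S to that of ak3.S (chr1S:116403839-117372033) 968 kb held 202 and 162 peaks, or 209 and 167 per Mb. Between ric1.L and ak3.L (chr1L:137351451-137740620) 389 kb held 47 and 38 peaks, or 121 and 97.6 per Mb. Protein-coding genes numbered 7 on 1L and 7 on 1S, among them jak2.S, for a kinase of cytokine receptors, while 8 lncRNA genes were annotated on 1S and 0 on 1L. Many peaks of the 1S stretch followed each other at one distance. Of neighbouring peaks there, 40 of 201 in replicate 1 and 15 of 161 in replicate 2 had middles 800 to 900 bp apart, with a median of 851 bp in each replicate, which is 19.9% and 9.32% against 1.07% and 1.02% on the rest of 1S. Peaks there had a lower median fold enrichment, 3.25 and 3.47 against 4.36 and 4.51 on the rest of 1S. With peaks of at least 3-fold enrichment alone, the density of the stretch relative to its chromosome was 1.13 times, against 1.75 times with all peaks. With peaks of a -log10 q of at least 2 alone, it was 1.84 times.

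Evenly spaced peaks were looked for over the whole pair after this was seen. A run was defined as at least 6 neighbouring peaks whose distances stayed within 5% of their running median and below 20 kb. In each replicate there were 3 runs on 1L, at the same places, and 1 on 1S, at different places, and the other 16 chromosomes held 22 and 16. The runs of the pair with most peaks, 21 and 15, were neighbours near the end of 1L, where both replicates had 36 peaks with middles at chr1L:231587572-231630470, or 42.9 kb, with median distances of 1237 bp to 1238 bp. All 36 were shared between the replicates. They were of nearly one width in replicate 1, 361 to 363 bp, and of 349 to 440 bp in replicate 2, had median fold enrichments of 3.21 and 2.69, and lay within the span of a single lncRNA gene, LOC121396065.

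The next run coincided with tRNA genes. Chromosome 1L carries 278 annotated tRNA genes, of which 64 (23.0%) overlapped a peak in both replicates, against 235 of 2322 (10.12%) on the other 16 chromosomes, and 11.5% of the tRNA genes on all 18 chromosomes did so. On 1S, 1 of 12 tRNA genes did. The overlap on 1L was nearly confined to a pair of kinds, the tRNA genes for histidine (trnah-gug) and for valine with an AAC anticodon (trnav-aac). It held for 33 of 38 trnah-gug genes and 30 of 46 trnav-aac genes, but for 1 of the 194 other tRNA genes of 1L. On the other 16 chromosomes the numbers were 0 of 20 trnah-gug genes, 1 of 25 trnav-aac genes and 234 of 2277 others. The copies on 1L are units of a tandem repeat and so do not count as independent genes.

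The largest cluster, chr1L:4771936-4852295, held 114 tRNA genes of 6 kinds in 80.4 kb, with trnah-gug returning every 3844 bp (median). Each replicate had 19 peaks there, covering 14.2% and 13.8% of the cluster. Of these, 17 in each replicate touched trnah-gug, 15 and 14 also reached the trnav-aac gene that starts 539 bp after it, and 0 touched a tRNA gene of another kind. All 17 trnah-gug genes had a peak in both replicates, and 15 and 14 of the 18 trnav-aac genes had one, while none of the 18 trnae-cuc, 21 trnar-acg, 20 trnar-ccu and 20 trnav-cac genes did in either. The middle of the peak lay 347 bp and 327 bp (median) after the first base of trnah-gug, between 219 bp and 374 bp in each replicate. Median fold enrichment was 4.68 and 4.39. Which GATC motifs the repeat holds was not analysed here, and how reads matching several copies of a repeat were placed is not given in the sources used here.

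**Figure D3:**
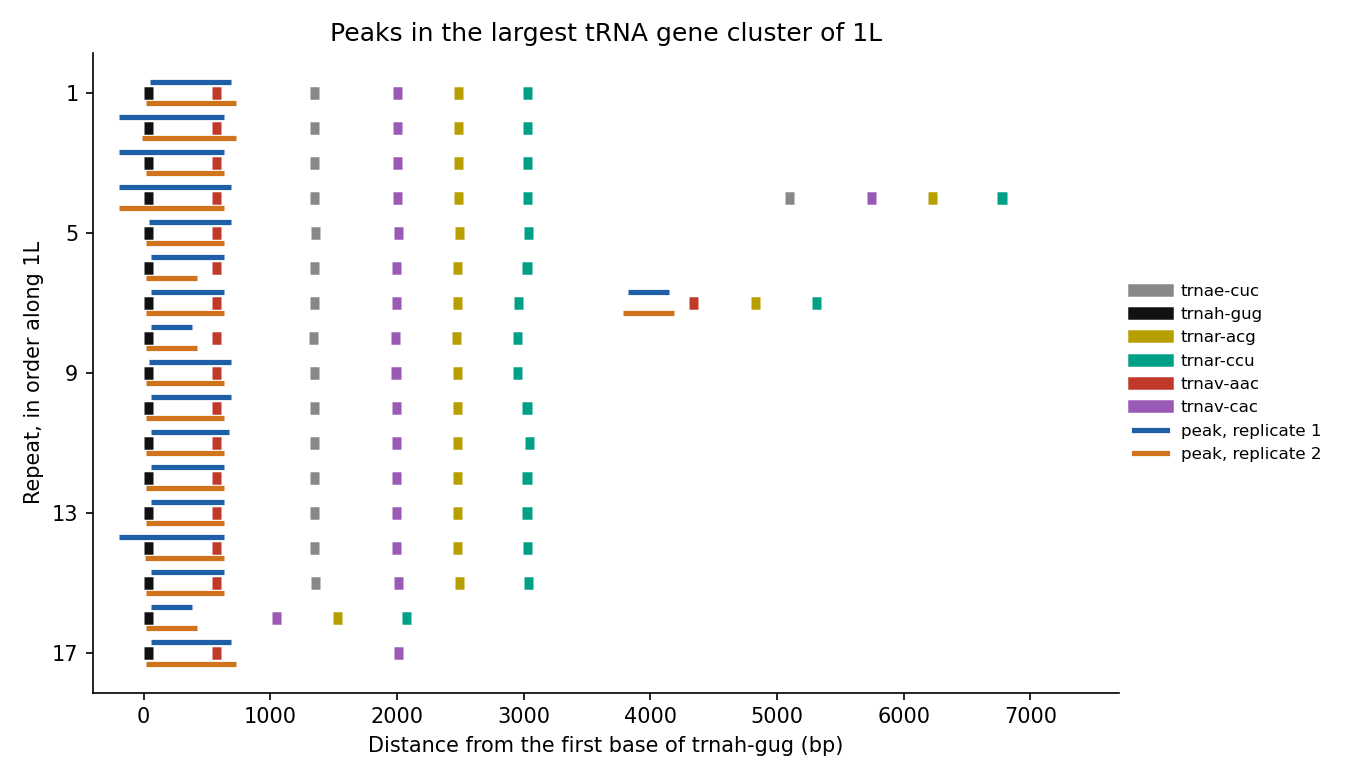
The 17 repeats of the largest tRNA gene cluster of 1L, one per row in order along the chromosome, by distance from the first base of trnah-gug (bp), with tRNA genes as blocks coloured by kind and the peaks of replicate 1 and replicate 2 as lines above and below them. In every repeat a peak of each replicate lies at trnah-gug and none touches trnae-cuc, trnav-cac, trnar-acg or trnar-ccu.

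The largest cluster of snRNA genes on 1S, at 180051989 to 180084493, was also a repeat. It held 29 snRNA genes in 32.5 kb, spaced alternately by 590 bp and 1241 bp (medians), so that every second gene recurred after 1831 bp. Replicate 1 had 16 peaks in it or up to 400 bp after it, and replicate 2 had 13, and 9 peaks in each began within 10 bp of the end of an snRNA gene. In replicate 2 a run of 9 peaks had the same spacing of 1831 bp. Of the 29 snRNA genes themselves, 6 and 4 overlapped a peak. This was near the share on the other 16 chromosomes, where 52 and 51 of 316 snRNA genes did so.

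Homeologous segments were then compared one by one. Of 1172 gene pairs with an .L copy on 1L and an .S copy on 1S, 1145 lay in the same order, and these were cut into 114 blocks of 10 genes on both chromosomes. The 1S block was denser in both replicates in 70 blocks (61.4%), the 1L block in 20, and the replicates differed in 24. Across the chromosome pairs with at least 90% of genes in the same order (pairs 1, 6 and 9_10), 55.6% of blocks were denser on S. The limit was set after seeing the data, and the share includes the blocks of pair 1 itself. Pair 6 had 29 of 58 blocks denser on S in both replicates, and pair 9_10 had 52.1% of 96. Of the pairs below the limit, pair 8 was above pair 1, with 34 of 48 blocks (70.8%). The others below the limit ranged from 33.3% in pair 5 to 57.9% in pair 3. Dense blocks of 1L tended to be dense on 1S, with a Spearman's rho of 0.762 in replicate 1 and 0.744 in replicate 2 over the 114 blocks, as a description. The 1L block was the longer in 99 of 114, and over all blocks 1L had 1.15 times the length of 1S and 1.09 times its peaks in each replicate.

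**Figure D4:**
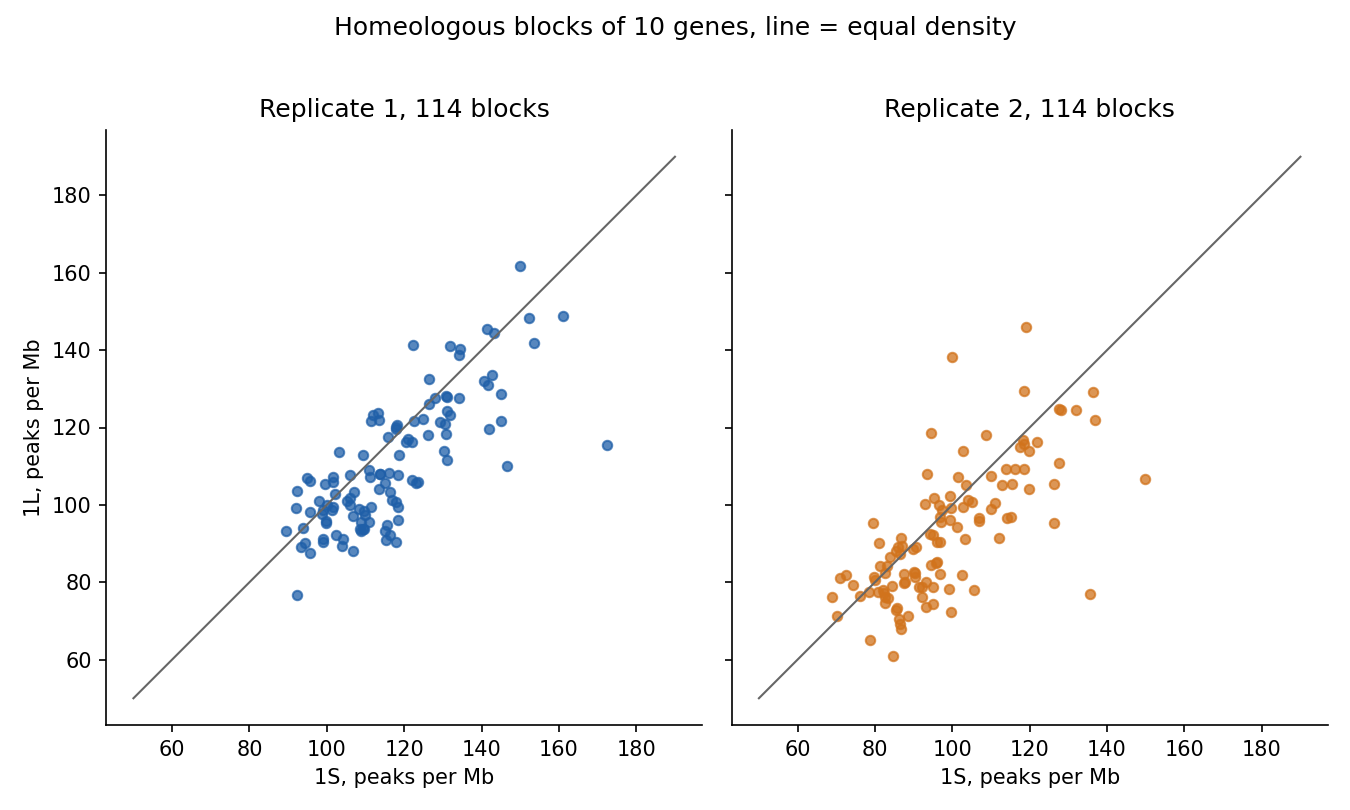
Peaks per Mb of each of 114 homeologous blocks on 1L (vertical) against 1S (horizontal), 1 panel for each replicate, with a line of equal density. More blocks lie below the line than above it, 70 of 114 in both replicates, and the block from nat8l to msantd1 stands furthest to the right, at 173 and 150 peaks per Mb on 1S.

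The named blocks are the 3 with the greatest mean excess on each copy, and on 1S the next block, from ibsp to cxcl8, was close to the third, with L minus S of -20.9 and -27.3 peaks per Mb. The block from nat8l, a gene for aspartate acetylation in neurons, to msantd1 took in most of the bin at 13 to 14 Mb of 1S. This block held 115 and 107 peaks per Mb on 1L, against 173 and 150 on 1S. That from hsd11b1l.2 to unc119b, of 0.273 Mb, held 110 and 77.1 on 1L, against 147 and 136 on 1S, with 30 and 21 peaks on 1L and 40 and 37 on 1S. The block from ttc39b to cdc37l1, with 90.4 and 74.3 peaks per Mb on 1L against 118 and 95.1 on 1S, included the stretch from ric1 to ak3. The greatest excess on 1L was that of a 0.116 Mb block of crystallin genes from crygdl.4 to crygdl.17, with 104 and 138 peaks per Mb on 1L against 92.3 and 99.996 on 1S, which rests on 12 and 16 peaks on 1L against 12 and 13 on 1S. The block from tmprss9 to cactin, which on 1L lies in the last of the 8 densest bins, held 162 and 146 on 1L against 150 and 119 on 1S, and that from ndufs7 to gpx4 141 and 118 on 1L against 132 and 94.5 on 1S.

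Peaks covered no more of the genes of pair 1 than of the DNA between them, without correction for the number of GATC motifs. Gene spans were 4.43% and 4.12% covered on 1L against 4.60% and 4.28% between genes, and 4.83% and 4.50% covered on 1S against 4.85% and 4.51% between genes. For the pair, genes minus intergenic DNA was -0.106 and -0.102 percentage points, against 0.0516 and 0.0167 on the other 16 chromosomes. A protein-coding gene with 1 kb on each side held a peak in both replicates in 3693 of 4676 cases (78.98%) on the pair, 77.6% on 1L and 80.9% on 1S, and 79.5% on all 18 chromosomes. Among lncRNA genes without flanks, 102 of 244 (41.8%) on 1L and 117 of 260 (45.0%) on 1S overlapped a peak in both replicates, and 47.4% did on all 18 chromosomes. Without flanks, 73.3% of protein-coding genes on 1L and 77.0% on 1S did. The lncRNA genes were shorter, with median spans of 5635 bp on 1L and 4654 bp on 1S, against 20531 bp and 20138 bp for protein-coding genes. Of the 1172 homeologous gene pairs, both copies had peaks in both replicates in 866 (73.9%, against 75.6% over all 9 pairs), and the .S copy was denser in both replicates in 456 (38.9%, against 38.2% over all 9 pairs), the .L copy in 337.

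The longest genes of the pair differed widely in covered share. The phosphatase gene ptprd.L, 955323 bp long, held 59 and 60 peaks with 2.22% and 2.58% covered, and ptprd.S, 998444 bp long, held 73 and 59 peaks with 3.04% and 2.58% covered. Both copies were below their chromosome in each replicate. The longest gene of 1L, ctnna2.L, which encodes a neuronal alpha-catenin, held 103 and 88 peaks with 4.25% and 3.98% covered, close to 1L as a whole. The longest of 1S, adgrl3.S, which encodes a latrophilin adhesion receptor and lies in the island, held 222 and 201 peaks with 7.40% and 7.49% covered. In sgcz, outside the 5 longest and described here because of its bins, the .L copy held 23 and 14 peaks and the .S copy 34 and 24.

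**Figure D5:**
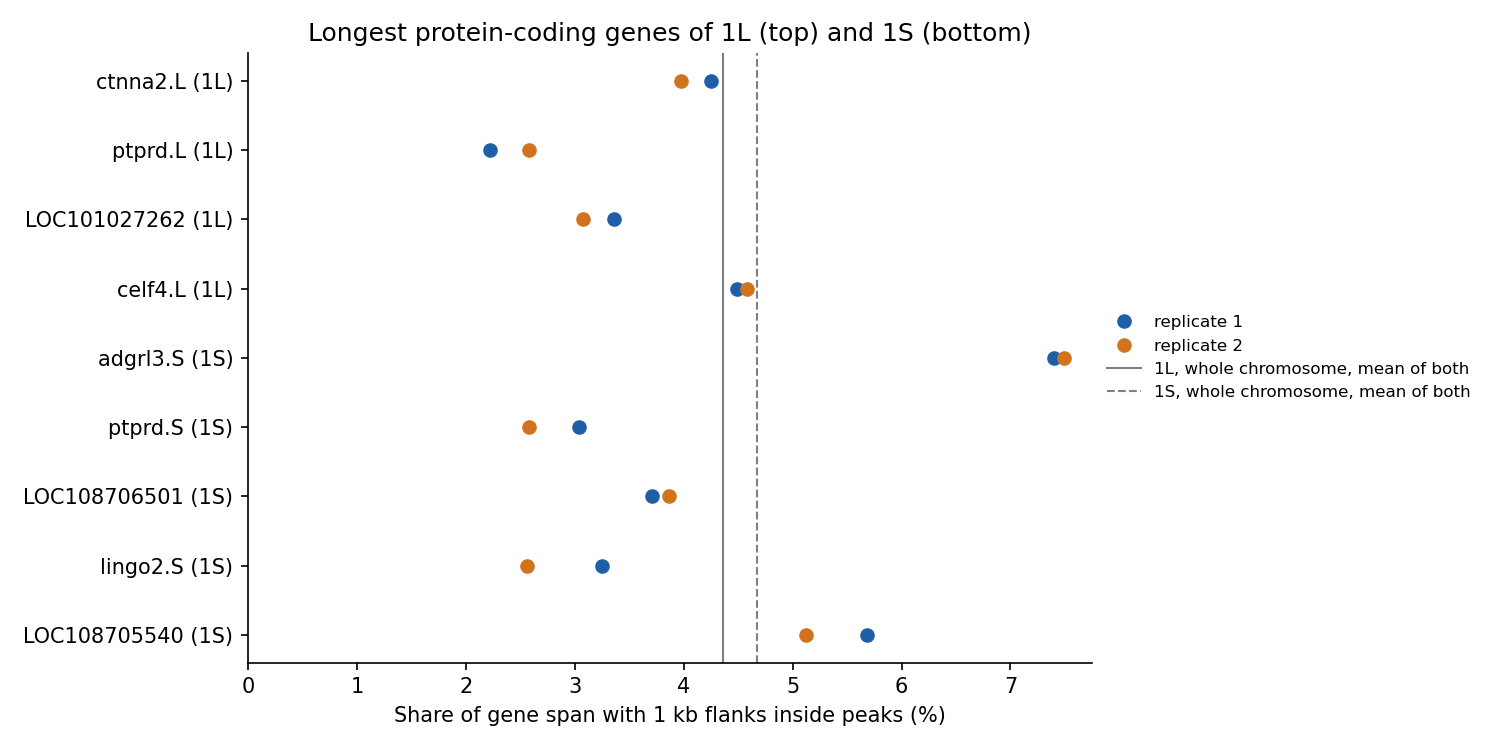
Share of the span of 4 of the 5 longest protein-coding genes of 1L (top) and the 5 longest of 1S (bottom), with 1 kb flanks, inside peaks (%), 1 point for each replicate, with lines at the covered share of 1L (solid) and 1S (dashed) in the mean of both replicates. The points of adgrl3.S, at 7.40% and 7.49%, lie far above both lines and those of ptprd.L and ptprd.S below them.

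Of 5 lists of genes for early development, 88 gene copies lay on pair 1, and 69 of them (78.4%) held a peak within 1 kb of their span in both replicates. A further 6 held one in replicate 1 only, 1 in replicate 2 only and 12 in neither. The median covered share of the listed copies was 4.49% and 4.40%, against 4.39% and 4.02% for all protein-coding genes of the pair. Listed genes therefore held a peak in both replicates about as often as all protein-coding genes of the pair, of which 78.98% did. Where both copies were on the pair (36 gene pairs), the .L copy was denser in both replicates in 11 and the .S copy in 19. Of all 1172 homeologous gene pairs of pair 1, the .L copy was denser in both replicates in 28.8% and the .S copy in 38.9%. Whether the listed pairs differ from these was not tested.

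Chromatin regulators held peaks in both replicates in 20 of 22 copies (90.9%), with a median window of 52.3 kb. Among protein-coding genes of the pair, 94.8% of those of 20 to 50 kb did so, and 99.5% of those of 50 to 100 kb. The gene of the chromatin assembly factor subunit chaf1a differed between the copies, with 10 and 9 peaks in 53.7 kb at chaf1a.L against 1 and 1 in 48.5 kb at chaf1a.S. The DNA methylation factor uhrf1 held 9 and 9 peaks in 72.7 kb at uhrf1.L, against 23 and 25 in 153 kb at uhrf1.S, and both copies lie in the island. The histone methyltransferase gene dot1l held 6 and 6 peaks at dot1l.L against 13 and 11 at dot1l.S. Peaks were absent in both replicates at h2az1.S, for a histone variant, whereas h2az1.L held 1 and 1, and at mbd3.S, for a subunit of the NuRD complex.

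Cell cycle genes held peaks in both replicates in 13 of 16 copies (81.25%), with a median window of 11.8 kb. Replication genes did in 6 of 6, with a median window of 34.1 kb. Of all protein-coding genes of the pair, 78.98% did, and 94.8% of those of 20 to 50 kb. At the cyclin A2 gene ccna2.L there was no peak in 9.41 kb, and ccna2.S held 1 and 0. At the cyclin B1 gene ccnb1.L there was no peak in 7.02 kb, and ccnb1.S held 1 and 1. The longer fzr1.L, which encodes an activator of the anaphase-promoting complex and lies in the island, held 15 and 15 peaks in 134 kb. That is 1.12 peaks per 10 kb in each replicate, against medians of 1.08 and 0.895 for protein-coding genes of 1L. The gene of the helicase component cdc45 held 2 and 1 peaks at cdc45.L, against 5 and 5 at cdc45.S.

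Early transcription factors held peaks in both replicates in 16 of 20 copies (80%), and 2 further copies held one in replicate 1 only. Of all protein-coding genes of the pair, 78.98% held a peak in both replicates. The maternal T-box gene vegt held 3 and 3 peaks at vegt.L and 3 and 3 at vegt.S, and the signal transducer smad4 held 5 and 5 at smad4.L and 4 and 3 at smad4.S. The small genes hand2.S and neurog2.L, for helix-loop-helix factors, held none, while hand2.L held 1 and 1. Signalling ligands and antagonists held peaks in both replicates in 14 of 24 copies, the lowest share of the 5 lists at 58.3%. Their median window was 14.1 kb, against 22.4 kb for all protein-coding genes of the pair. For cell cycle genes it was 11.8 kb (81.25% with peaks in both replicates). The windows of this list ranged from 4.37 to 84.1 kb. Its share lay between the 48.4% of protein-coding genes under 10 kb and the 78.7% of those of 10 to 20 kb. Whether its share differs from that of genes of the same sizes was not tested. Without a peak in either replicate were bmp3.L, cer1.S, fgf20.L, gdf3.S and sfrp2.S, and gdf1.S, which the gene table places on 1L. Their homeologs bmp3.S, fgf20.S and sfrp2.L held 2 and 3, 1 and 1, and 2 and 2 peaks. The peaks at fgf20.S did not overlap between the replicates, and at bmp3.S 1 peak of each replicate was shared. The most covered listed window was that of tdgf1.3.L, a co-receptor gene of Nodal signalling, with 2 and 2 peaks over 17.5% and 19.1% of its 5.97 kb. At such sizes a single peak decides whether a gene is counted, and among protein-coding genes of the pair under 10 kb 48.4% held a peak in both replicates, against 99.8% of those above 100 kb.

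The strongest shared peaks were narrow and alike in both replicates. On 1L the highest was at chr1L:232948235-232948581, 3713 bp from LOC108696007, with a fold enrichment of 24.5 and 25.03. On 1S it was at chr1S:74462660-74463006, in the island and 1828 bp from LOC121399331, with 26.9 and 26.9, and the next, chr1S:42500020-42500366, lay inside gria2.S, a gene for a glutamate receptor subunit, with 26.4 and 26.7. The 3 highest of each chromosome were 347 or 348 bp wide in replicate 1 and 350 or 351 bp in replicate 2. The widest overlaps were weaker. That of 1S, chr1S:119745002-119747613, was 2612 bp long with 3.91 and 3.69, and that of 1L, chr1L:198273510-198275039 in ankrd34b.L, was 1530 bp long with 3.98 and 3.94.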

How the data were processed

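Accessible DNA of Dam-injected whole embryos was measured by CATaDa in 2 replicates. The authors aligned reads to X. laevis assembly v10.1 with Bowtie2 and called broad peaks on each replicate separately with MACS3 3.0.1, and the cutoff and any control library are not given in the sources used here. The deposited peak lists give other values (start and end positions), the authors' fold enrichment (a ratio) and the authors' -log10 q, and hold no read counts, so depth is unknown and no counting interval was possible. Peaks of 1L and 1S were counted by their middle in 1 Mb bins and in homeologous blocks between every 10th gene pair in the same order. In RefSeq genes of the same assembly, a peak counted where it shared at least 1 base. Protein-coding and listed genes and homeologous gene pairs had 1 kb flanks. Counts for tRNA, snRNA and lncRNA genes, and the comparison of genes with the DNA between them, used spans without flanks. Chromosome lengths are the last coordinate seen in the lists or the gene table. Procedures were tested on simulated data. Members, gene lists and rules for named items were chosen with earlier results of these data known: listed genes, extreme bins, peaks, blocks and stretches, and the longest genes, of which 1 on 1L is not reported here. The windows of the dense island, the runs of evenly spaced peaks, the tRNA and snRNA clusters and the stretch from ric1 to ak3 were chosen after their values were seen. The planned comparison of promoters by GATC content and the printing of promoter sequences were not run, since no sequence was used here.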

Additional observations from a re-analysis of the deposited data

How the results depend on the processing

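The covered share of pair 1, 4.51% in the mean of both replicates, was 4.22% with a -log10 q of at least 2, 4.11% with a fold enrichment of at least 3 and 4.17% with equal numbers of peaks, and the pair stayed the lowest of 9 under each of 6 alternatives. L minus S in covered share, -0.317 percentage points, was -0.279 with a fold enrichment of at least 3, -0.334 after merging peaks within 500 bp and -0.291 without stretches of 50 kb or more that hold no peak. It was -0.299 without the stretches from prag1 to rest and -0.295 without those from ric1 to ak3, both chosen after seeing the data, and kept its direction in all 9 alternatives. Genes minus intergenic DNA on the pair, -0.104 points, was -0.110, -0.0957, -0.0998 and -0.118 with the filters on q and fold, equal numbers and merging. Leaving out either replicate gave a covered share of 4.34% to 4.67%, L minus S of -0.326 to -0.308, genes minus intergenic DNA of -0.106 to -0.102, a median bin of 93 to 111 peaks and 71.9% of blocks denser on S. That block share needs S to be denser in 1 replicate only, so it cannot be below the main 61.4%, which needs both. Replicate overlap, bin density and the share of blocks denser on S stayed within the spread between replicates or within 1.5 times of the main value in every alternative run. No paired analysis was possible because there is 1 group. The planned result on promoters by GATC and its alternatives were not run. The density of the ric1 to ak3 stretch of 1S, 1.75 times that of its chromosome, fell to 1.13 times with a fold enrichment of at least 3. It was 1.84 times with a -log10 q of at least 2, 1.84 times with equal numbers of peaks and 1.46 times after merging. The cause of these changes was not tested. The unknown depth limits comparison of peak number between replicates.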
